A study of Oryza sativa with 6 samples.

Results

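The WRKY transcription factors of rice were followed in leaves of a diploid line and of the tetraploid made from it. The set holds 46 gene models, chosen by their locus identifiers from a list of WRKY family genes, of 55986 gene models in the count table. The list gives a name to the first 14 of them, and the other 32 are given here by identifier only. The rule matches identifiers and uses no measured value, but the members were chosen with earlier results of these data known.

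Balilla-2x is a diploid japonica line with 24 chromosomes, and Balilla-4x is an artificial tetraploid with 48 chromosomes obtained by doubling that diploid. The plants, under no treatment, came from a Shanghai paddy field and were 4 weeks old when the leaves were taken. Each line is represented by 3 RNA sequencing libraries, with 17147985 to 18106962 counts in Balilla-2x and 16738447 to 17078688 in Balilla-4x. The labels do not say whether the libraries came from separate plants or how many tetraploid plants or lineages were sampled, and the spread behind each p-value here is that between libraries, possibly only technical. The files carry no gene names, and the leaf label was therefore not checked against marker genes.

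WRKY proteins are plant transcription factors that bind a short DNA element called the W-box through the conserved WRKY domain. Many of them are induced by pathogens, by salicylate or by wounding, and many WRKY genes carry W-boxes themselves, so that members activate or repress one another. In rice leaves the family is best known for setting the strength of the response to the blast fungus and to bacterial blight, with activators and repressors induced side by side.

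The summed expression of the family was lower in the tetraploid. Levels are given as CPM, counts scaled to a common library size with TMM factors, where 3 counts correspond to 0.170 to 0.178 CPM, a floor that covers counting error only. Summed over the 46 members, the level was 2246, 2632 and 2381 CPM in the Balilla-2x libraries and 1617, 1318 and 1309 CPM in the Balilla-4x libraries, so the lines did not overlap. The means were 2420 ± 196 and 1415 ± 175 CPM (SD, n = 3 per line), a ratio of 1.71 with no test, since the members were chosen with earlier results known. All levels are relative to the other RNA of a library, so the amount of RNA per cell was not measured. Leaves are a mixture of cell types, and fewer cells expressing a gene cannot be told apart from less RNA per cell.

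Most of the members that could be tested were lower in Balilla-4x one by one. Of the 46, 37 passed the filter on low counts, and 24 of these differed at an adjusted p under 0.05 in edgeR's quasi-likelihood test with Benjamini-Hochberg adjustment over all 20976 tested genes. Of the called members 23 were lower and 1 was higher in the tetraploid. Among all tested genes the share called was 26.1%, with 13.7% called lower and 12.4% called higher. Because abundant genes were more often lower, a second background was added after the data had been seen. Among genes with a mean of at least 10 CPM 17.6% were called lower, and 18 of the 27 members at that level were. The median log2 fold change (Balilla-4x over Balilla-2x) was -0.88 over the 37 tested members and 0.01 over all tested genes.

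At least 2-fold changes were found for 14 members that were lower and 1 that was higher, against 5.18% and 6.55% of all tested genes. The called decreases ran from 1.52-fold to 4.32-fold. Every Balilla-4x library lay below every Balilla-2x library in 24 of the 37 tested members, and in 22.6% of all tested genes. Of the 13 tested members that were not called, 11 had a negative log2 fold change.

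**Figure D1:**
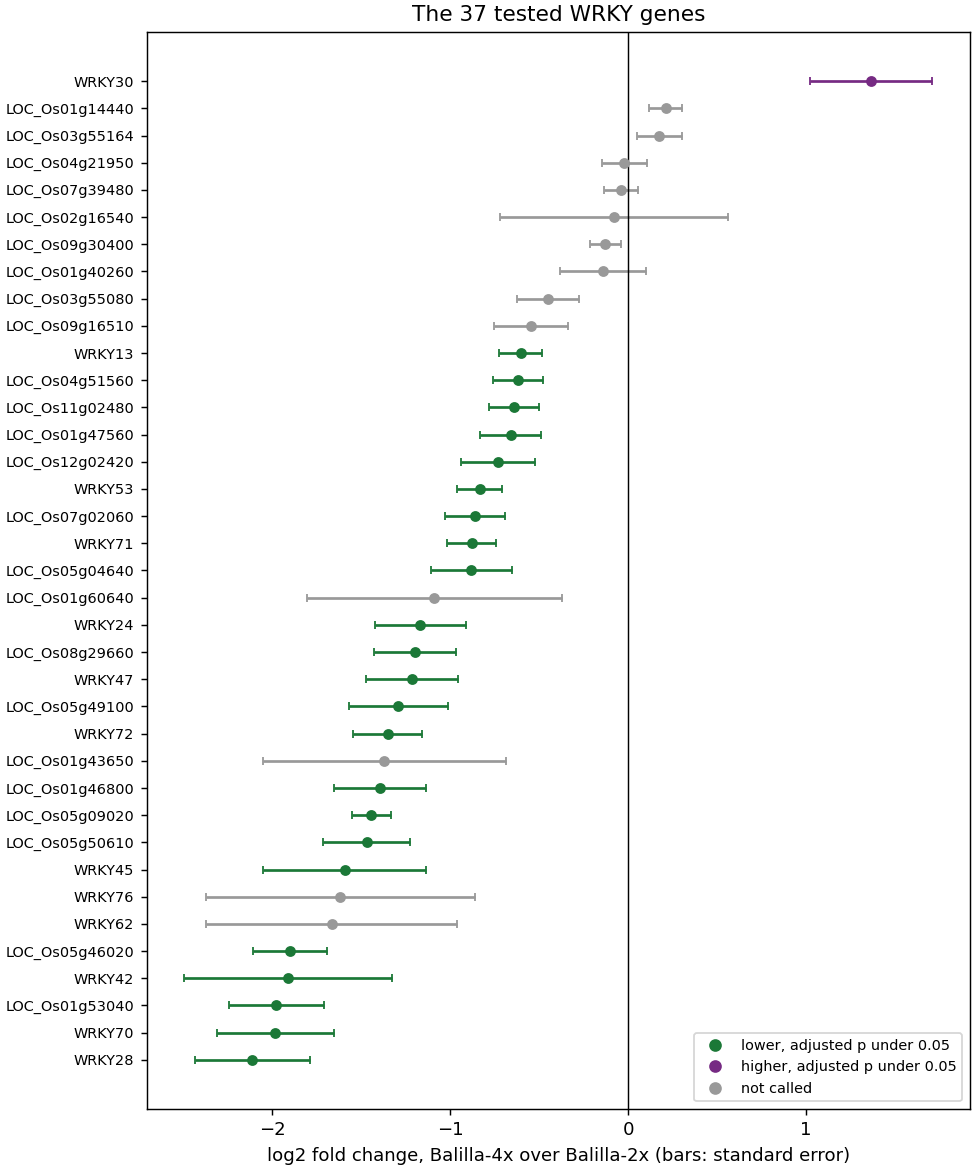
Log2 fold change of Balilla-4x over Balilla-2x (horizontal axis) for each of the 37 tested WRKY genes, with bars for the standard error from edgeR and colours for the call. The 23 genes called lower run from -2.11 (WRKY28) to -0.60 (WRKY13), and WRKY30 at 1.37 is the one gene called higher.

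Group IIa of the family holds WRKY62, WRKY76, WRKY28 and WRKY71. WRKY62, WRKY76 and WRKY28 are known in rice as repressors of defence that are themselves induced by pathogens. Of the 4 group IIa genes, 2 were called lower, against 13.7% of all tested genes. WRKY62 and WRKY76 had lower means but overlapping libraries. WRKY28 (LOC_Os06g44010, chromosome 6), a repressor of basal immunity, was read at 9.48, 11.7 and 21.0 CPM in Balilla-2x and at 4.10, 2.96 and 2.69 CPM in Balilla-4x. It had the largest decrease of all tested members, 4.32-fold (log2 fold change -2.11, SE 0.32, edgeR adjusted p = 0.00257). WRKY71 (LOC_Os02g08440, chromosome 2), known as a repressor of gibberellin signalling in the aleurone, had 37.4, 47.0 and 52.2 CPM in Balilla-2x and 24.2, 26.5 and 23.5 CPM in Balilla-4x. The tetraploid libraries lay close together and below all diploid ones, at a log2 fold change of -0.88 (SE 0.14, edgeR adjusted p = 0.0026).

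WRKY62 and WRKY76 varied widely within each line. WRKY62 (LOC_Os09g25070, chromosome 9), which binds the immune receptor XA21, had 29.1, 37.1 and 11.03 CPM in Balilla-2x and 18.6, 3.13 and 2.69 CPM in Balilla-4x. WRKY76 (LOC_Os09g25060), a repressor of blast resistance, had 58.6, 86.7 and 18.1 CPM in Balilla-2x and 38.3, 11.4 and 3.62 CPM in Balilla-4x. For both genes Balilla-4x replicate 1 lay above Balilla-2x replicate 3, and the same libraries were high and low. The log2 fold changes were -1.67 (SE 0.70) for WRKY62 and -1.62 (SE 0.76) for WRKY76, and neither passed the threshold (edgeR adjusted p = 0.115 and 0.148). Without Balilla-4x replicate 1 they were -3.15 and -2.86, and both passed it (edgeR adjusted p = 0.0019 and 0.012).

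The genes for WRKY62 and WRKY76 are neighbours, in the locus numbers and also in the RefSeq gene table. WRKY76 took 66.8%, 70.02% and 62.1% of the counts of the pair in Balilla-2x and 67.3%, 78.4% and 57.4% in Balilla-4x. The division between the neighbours thus overlapped between the lines, while their summed level in single libraries spanned a wide range. How reads shared by similar neighbours were counted is not given in the sources used here.

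The group I proteins WRKY53, WRKY24, WRKY70 and WRKY30 are large WRKY proteins, several of which are known in rice as substrates of MAP kinases in the response to pathogens. Of these 4 genes 3 were called lower and 1 higher, against 13.7% and 12.4% of all tested genes. WRKY53 (LOC_Os05g27730, chromosome 5), which acts in blast resistance and in brassinosteroid signalling, had 403, 528 and 461 CPM in Balilla-2x and 279.6, 262 and 240.0 CPM in Balilla-4x. All tetraploid libraries were below all diploid ones, a 1.78-fold decrease (log2 fold change -0.83, SE 0.13, edgeR adjusted p = 0.00244).

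WRKY24 (LOC_Os01g61080, chromosome 1), a repressor of gibberellin and abscisic acid responses in the aleurone, had 136, 271 and 282 CPM in Balilla-2x and 118, 87.8 and 100.7 CPM in Balilla-4x. The lines were separated narrowly, since Balilla-2x replicate 1 was close to the tetraploid libraries. Its log2 fold change was -1.17 (SE 0.26, edgeR adjusted p = 0.0119), and without Balilla-4x replicate 2 the adjusted p of the same test was 0.0608. WRKY70 (LOC_Os05g39720, chromosome 5), known for favouring herbivore defence over growth, had 45.02, 101.5 and 107 CPM in Balilla-2x and 27.96, 15.7 and 20.4 CPM in Balilla-4x. Balilla-2x replicate 1 was again the lowest diploid library, and the decrease was 3.96-fold (log2 fold change -1.98, SE 0.33, edgeR adjusted p = 0.00362).

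WRKY30 (LOC_Os08g38990, chromosome 8), whose overexpression raises resistance to blast and sheath blight, went the other way. It was read at 2.21, 1.19 and 1.96 CPM in Balilla-2x, from 21 to 39 counts, and at 3.22, 4.78 and 5.84 CPM in Balilla-4x, from 55 to 100 counts. All tetraploid libraries were above all diploid ones, a 2.58-fold increase at a low level (log2 fold change 1.37, SE 0.34, edgeR adjusted p = 0.0205). The call was not kept when one of 4 libraries was left out. For the diploid, the edgeR adjusted p was 0.0582 without replicate 2 and 0.0542 without replicate 3. For the tetraploid it was 0.065 without replicate 2 and 0.0793 without replicate 3.

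**Figure D2:**
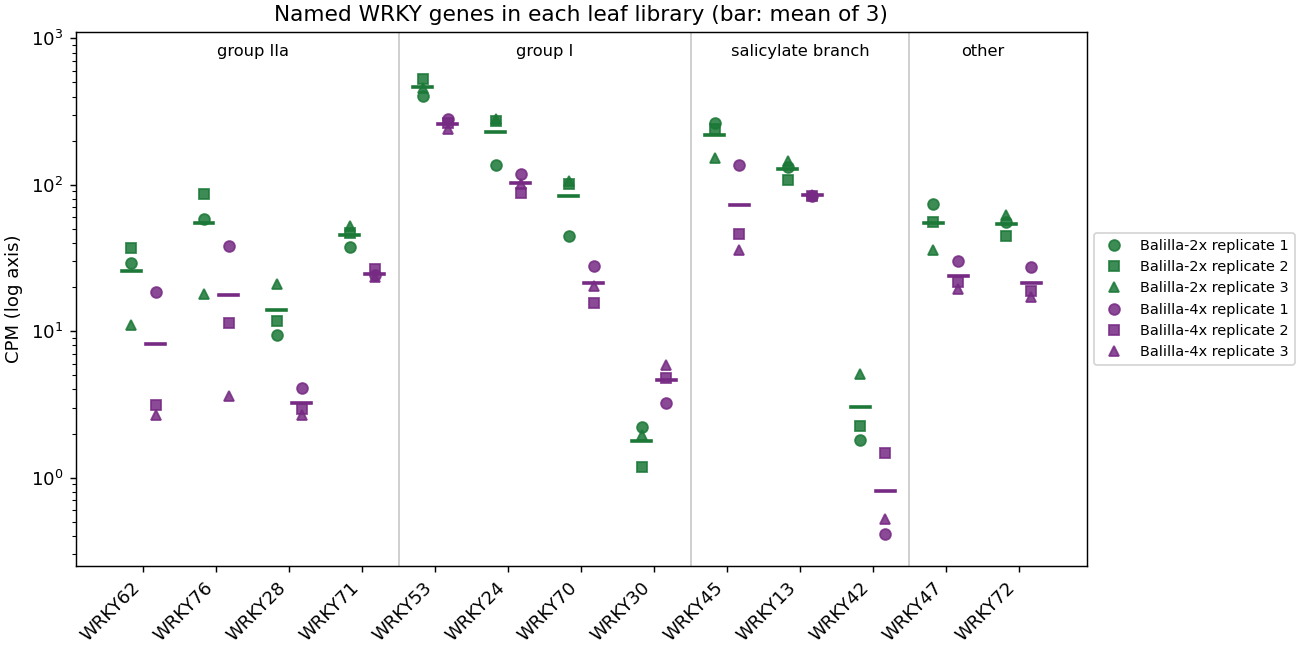
CPM of 13 named WRKY genes (log axis) in each library, with green for Balilla-2x, purple for Balilla-4x, a symbol for each replicate number and a bar for the mean of 3 libraries. Libraries of the lines do not overlap except for WRKY62 and WRKY76, and WRKY30 is the only gene shown with the tetraploid above the diploid. WRKY6, with at most 4 counts in a library, is left out.

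The list taken here as the salicylate branch held WRKY45, WRKY13, WRKY42 and WRKY6. WRKY42 is in this list although it is taken below as a repressor of blast resistance. Of the list 3 genes could be tested and all 3 were called lower, against 13.7% of all tested genes. WRKY45 (LOC_Os05g25770, chromosome 5) is a central activator of the salicylate response in rice, and it mediates the protection given by chemical inducers of resistance. It had 265, 239.7 and 152 CPM in Balilla-2x and 136, 45.8 and 36.0 CPM in Balilla-4x. The lines were separated by a small gap between Balilla-2x replicate 3 and Balilla-4x replicate 1, the same libraries that overlapped in WRKY62 and WRKY76. The decrease was 3.02-fold (log2 fold change -1.59, SE 0.46, edgeR adjusted p = 0.0343). The call was not kept in several fits that left out 1 library. The edgeR adjusted p-values were 0.0892 and 0.0792 without Balilla-2x replicates 1 and 2, and 0.131 and 0.0931 without Balilla-4x replicates 2 and 3. These fits also called fewer genes in all, 3029 to 4292 against 5481. Without Balilla-4x replicate 1 the log2 fold change was -2.42 (edgeR adjusted p = 0.000186).

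WRKY13 (LOC_Os01g54600, chromosome 1), which links WRKY45 to WRKY42 in a regulatory cascade of blast resistance, had 132, 107 and 146 CPM in Balilla-2x and 84.4, 83.4 and 85.8 CPM in Balilla-4x. The tetraploid libraries were nearly equal, and the decrease of 1.52-fold was the smallest among the called members (log2 fold change -0.60, SE 0.12, edgeR adjusted p = 0.00818). WRKY42 (LOC_Os02g26430, chromosome 2), a repressor of blast resistance that also promotes leaf senescence, was read at a low level. It had 32, 40 and 86 counts in Balilla-2x and 7, 26 and 9 counts in Balilla-4x, or 1.82, 2.26 and 5.10 CPM against 0.410, 1.48 and 0.525 CPM. Its log2 fold change was -1.91 (SE 0.58, edgeR adjusted p = 0.0419).

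The call of WRKY42 was lost when one of 4 libraries was left out, with edgeR adjusted p-values of 0.0597 and 0.164 without Balilla-2x replicates 2 and 3 and of 0.0756 and 0.132 without Balilla-4x replicates 1 and 3. Without Balilla-4x replicate 2 its log2 fold change was -2.67 (edgeR adjusted p = 0.0304). WRKY6 (LOC_Os03g58420, chromosome 3), an activator of pathogenesis-related genes, had 1, 0 and 4 counts in Balilla-2x and 1 count in each Balilla-4x library. A difference was not detectable at this depth.

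The remaining named genes, WRKY72 and WRKY47, were both called lower, against 13.7% of all tested genes. WRKY72 (LOC_Os11g29870, chromosome 11), which lowers resistance to bacterial blight by repressing jasmonate synthesis, had 55.7, 44.4 and 61.9 CPM in Balilla-2x and 27.5, 18.8 and 17.2 CPM in Balilla-4x. The lines were well apart, with a 2.55-fold decrease (log2 fold change -1.35, SE 0.19, edgeR adjusted p = 0.00186). WRKY47 (LOC_Os07g48260, chromosome 7), linked to blast resistance and to the response to water deficit, had 73.6, 55.4 and 35.8 CPM in Balilla-2x and 29.95, 21.5 and 19.6 CPM in Balilla-4x. Its log2 fold change was -1.21 (SE 0.26, edgeR adjusted p = 0.0104), and without Balilla-4x replicate 2 the adjusted p was 0.0546.

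Genes taken here as activators and genes taken here as repressors of disease resistance were both among the named genes called lower. They included WRKY45, WRKY53 and WRKY13, taken as activators, and WRKY28, WRKY42 and WRKY72, taken as repressors. WRKY71, WRKY24, WRKY70 and WRKY47 were also called lower and were given neither role. Of the other genes taken as activators, WRKY30 was called higher and WRKY6 could not be tested. WRKY62 and WRKY76, taken as repressors, were not called. The roles were assigned from general knowledge of rice, and no test over the role groups was made.

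Of the 32 members with an identifier only, 24 were tested, and 13 were called lower and 0 higher (edgeR, adjusted p under 0.05). The share called lower was 54.2%. Among all tested genes 13.7% were called lower and 12.4% higher. LOC_Os01g14440 was higher in Balilla-4x without overlap but not called. The 7 that fell at least 2-fold were LOC_Os01g53040, LOC_Os05g46020, LOC_Os05g50610, LOC_Os05g09020, LOC_Os01g46800, LOC_Os05g49100 and LOC_Os08g29660. LOC_Os01g53040 had 60.9, 72.4 and 80.5 CPM in Balilla-2x and 27.0, 15.2 and 12.1 CPM in Balilla-4x. That 3.93-fold decrease (log2 fold change -1.98, SE 0.27, edgeR adjusted p = 0.00138) was of the size seen for WRKY70.

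LOC_Os05g09020 gave the lowest adjusted p of all members. It had 57.4, 50.8 and 51.2 CPM in Balilla-2x and 19.4, 21.4 and 17.8 CPM in Balilla-4x, so both lines were tight and wide apart (log2 fold change -1.44, SE 0.11, edgeR adjusted p = 8.33e-05). LOC_Os05g46020 followed, with 24.8, 15.3 and 22.2 CPM in Balilla-2x and 4.75, 5.80 and 6.13 CPM in Balilla-4x (log2 fold change -1.90, SE 0.21, edgeR adjusted p = 0.000536). Both genes showed decreases several times their standard error.

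LOC_Os08g29660 had 56.0, 87.3 and 52.7 CPM in Balilla-2x and 35.7, 21.5 and 28.3 CPM in Balilla-4x, a 2.29-fold decrease (edgeR adjusted p = 0.00699). LOC_Os01g46800 had 21.0, 42.003 and 38.3 CPM in Balilla-2x and 14.9, 10.2 and 13.5 CPM in Balilla-4x, a 2.63-fold decrease (edgeR adjusted p = 0.00582). In the latter, as in WRKY24 and WRKY70, Balilla-2x replicate 1 was the lowest diploid library. LOC_Os05g50610 had 11.8, 10.3 and 15.4 CPM in Balilla-2x and 3.58, 3.98 and 5.95 CPM in Balilla-4x (log2 fold change -1.47, SE 0.24, edgeR adjusted p = 0.00365). LOC_Os05g49100, at a lower level, had 3.58, 4.64 and 5.57 CPM against 1.64, 2.05 and 1.93 CPM (log2 fold change -1.29, SE 0.28, edgeR adjusted p = 0.011). In each of the 4 genes the lowest diploid library was above the highest tetraploid library.

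The other 6 called members with an identifier only fell by less than 2-fold. LOC_Os05g04640 had 41.4, 43.4 and 49.6 CPM in Balilla-2x and 35.1, 19.0 and 18.9 CPM in Balilla-4x (edgeR adjusted p = 0.0236), with Balilla-4x replicate 1 nearer to the diploid than to its own line. LOC_Os07g02060 had 20.2, 16.2 and 22.5 CPM in Balilla-2x and 9.85, 12.7 and 9.92 CPM in Balilla-4x (edgeR adjusted p = 0.00744). LOC_Os04g51560 had 34.8, 43.3 and 35.7 CPM against 22.9, 22.3 and 28.9 CPM (edgeR adjusted p = 0.0133). These genes did not overlap between the lines, but LOC_Os05g04640 and LOC_Os04g51560 came to adjusted p-values of 0.0993 and 0.0651 without Balilla-4x replicate 2. LOC_Os05g04640 was also not called when diploid replicate 2 (edgeR adjusted p = 0.0518), diploid replicate 3 (0.0773) or tetraploid replicate 3 (0.0847) was left out.

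LOC_Os01g47560 had 21.0, 24.1 and 29.3 CPM in Balilla-2x and 16.4, 12.8 and 17.9 CPM in Balilla-4x (edgeR adjusted p = 0.0224). It was not called without Balilla-2x replicate 3 (edgeR adjusted p = 0.0791) or Balilla-4x replicate 2 (0.0851).

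The last pair lies in clusters of neighbouring WRKY loci near the start of chromosomes 11 and 12, where rice carries a known segmental duplication. On chromosome 11 LOC_Os11g02480 had 14.2, 14.7 and 15.8 CPM in Balilla-2x and 8.50, 9.55 and 10.6 CPM in Balilla-4x (log2 fold change -0.64, SE 0.14, edgeR adjusted p = 0.0124). On chromosome 12 LOC_Os12g02420 had 7.04, 7.13 and 8.60 CPM in Balilla-2x and 4.57, 3.75 and 5.37 CPM in Balilla-4x (log2 fold change -0.73, SE 0.21, edgeR adjusted p = 0.0327). Both decreases were below 2-fold with no overlap of the lines. LOC_Os12g02420 was not called without Balilla-2x replicate 1 (edgeR adjusted p = 0.0547), 2 (0.0619) or 3 (0.111), or without Balilla-4x replicate 2 (0.115).

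The other loci of these clusters were nearly silent. LOC_Os11g02540 had at most 2 counts in a library and LOC_Os12g02450 at most 9. LOC_Os11g02520 had 2, 0 and 54 counts in Balilla-2x and 0, 7 and 2 counts in Balilla-4x, so its reads came almost wholly from Balilla-2x replicate 3. Reads of similar copies in the duplicated segments could have been divided among them, and the values of these loci are uncertain for that reason.

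The members that were not called included several of the most abundant. LOC_Os01g14440 had 139.8, 144 and 142 CPM in Balilla-2x and 175, 164 and 154 CPM in Balilla-4x, above the diploid in every library but at a log2 fold change of 0.21 (SE 0.09, edgeR adjusted p = 0.126). LOC_Os09g30400 lay between 96.7 and 117 CPM in all libraries, the tetraploid ones just below the diploid ones, with a log2 fold change of -0.13 (SE 0.09, edgeR adjusted p = 0.32). LOC_Os07g39480, at 58.4 to 67.8 CPM, and LOC_Os04g21950, at 64.5 to 82.6 CPM, had log2 fold changes of -0.04 (SE 0.10) and -0.02 (SE 0.12), whose sign turned with library totals in place of TMM. For these 4 genes a difference was not called, and each log2 fold change was within 0.21 of 0. LOC_Os09g16510, at 145, 164 and 102 CPM in Balilla-2x and 120.2, 85.9 and 76.6 CPM in Balilla-4x, overlapped between the lines and was not called (log2 fold change -0.54, edgeR adjusted p = 0.0876). It was called lower without Balilla-2x replicate 3 (edgeR adjusted p = 0.0411), without Balilla-4x replicate 1 (0.0147) and with DESeq2 (adjusted p = 0.0458).

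On chromosome 3 the neighbouring loci LOC_Os03g55080 and LOC_Os03g55164 differed in sign. LOC_Os03g55080 had 31.3, 33.9 and 35.2 CPM in Balilla-2x and 31.6, 22.9 and 19.0 CPM in Balilla-4x, and LOC_Os03g55164 had 48.0, 56.1 and 44.6 CPM against 48.1, 59.5 and 60.3 CPM. Neither was called (log2 fold changes -0.45 and 0.18, edgeR adjusted p = 0.0914 and 0.335). Without Balilla-4x replicate 1, LOC_Os03g55080 was called lower, at a log2 fold change of -0.68 (edgeR adjusted p = 0.0051). The share of the pair's counts taken by LOC_Os03g55080 was 39.4%, 37.7% and 44.1% in Balilla-2x and 39.6%, 27.8% and 24.0% in Balilla-4x, so Balilla-4x replicate 1 resembled the diploid here. The other tested members that were not called, LOC_Os01g40260, LOC_Os01g43650, LOC_Os01g60640 and LOC_Os02g16540, had means of 0.505 to 9.07 CPM and overlapped between the lines. Of these LOC_Os01g60640 was called lower without Balilla-4x replicate 1 (log2 fold change -2.38, edgeR adjusted p = 0.0335).

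The 9 members below the filter on low counts were WRKY6 and 8 with an identifier only, and they are part of the family without a test. LOC_Os06g30860 had 0 counts in every library. LOC_Os01g53260 had 6, 11 and 21 counts in Balilla-2x and 2, 1 and 2 counts in Balilla-4x, and it was called lower when the filter was dropped (edgeR adjusted p = 0.0352). It was the only one of the 8 with any count for which that fit gave a call. The remaining ones, besides LOC_Os11g02520, had at most 12 counts in a library.

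Compared per gene length, WRKY53 was the most abundant member in both lines, and the order of the next members differed. Levels between genes are given as the deposited FPKM, which divides by gene length and library total, without TMM. WRKY53 was first in all 6 libraries, at 219 ± 30.3 FPKM in Balilla-2x and 128 ± 10.9 in Balilla-4x (SD, n = 3 per line). WRKY45 at 140.0 ± 37.3 FPKM and WRKY24 at 104 ± 37.4 FPKM came next in Balilla-2x, and they did not differ beyond their spread. In Balilla-4x their levels were 48.4 ± 36.8 and 48.2 ± 6.93 FPKM, and they ranked 5 and 6. LOC_Os01g14440, at 65.7 ± 1.31 FPKM in Balilla-2x and 79.2 ± 5.70 in Balilla-4x (SD, n = 3 per line), moved from rank 6 to rank 2. WRKY70 moved from rank 12 to rank 22 and LOC_Os01g53040 from rank 11 to rank 21. From rank 8 to rank 25 in Balilla-2x, no member's mean differed from the next by more than the larger of their SDs.

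**Figure D3:**
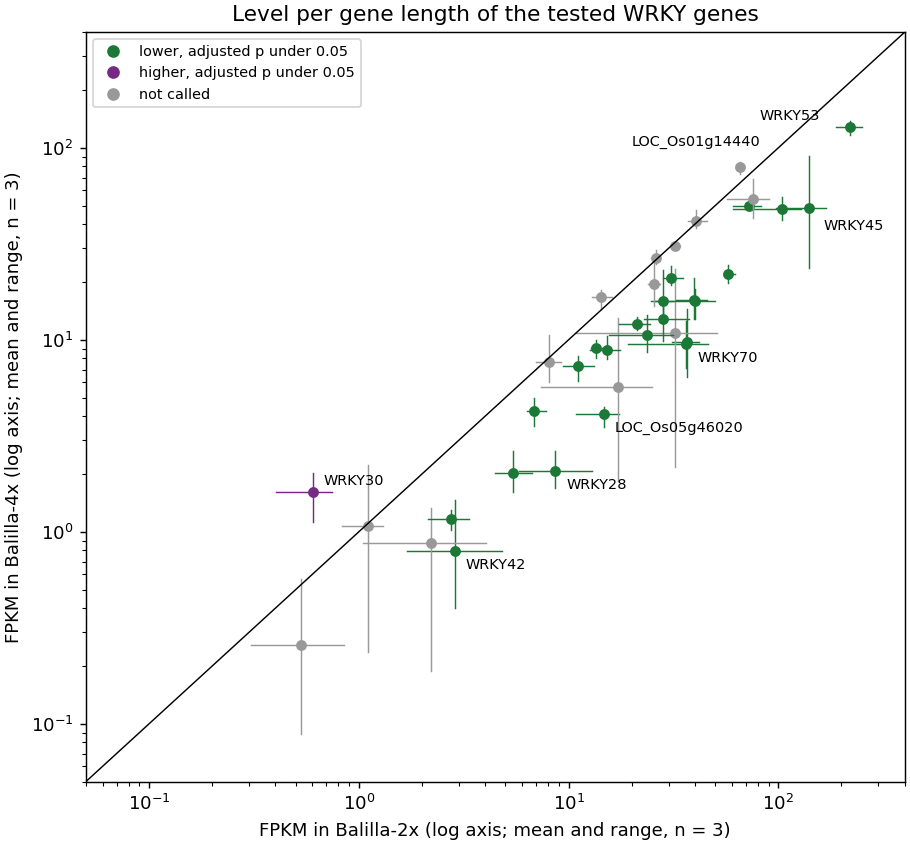
Mean FPKM in Balilla-4x against mean FPKM in Balilla-2x for the 37 tested WRKY genes, both on log axes, with lines for the range of the 3 libraries and the diagonal for equal levels. Called genes lie below the diagonal over the whole range of levels, except WRKY30. LOC_Os01g14440 and LOC_Os03g55164, which were not called, lie above it, and LOC_Os04g21950 and LOC_Os07g39480, also not called, lie just above it.

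The libraries of a line differed more for WRKY genes than for genes in general. The median ratio of the highest to the lowest library was 1.40 in Balilla-2x and 1.53 in Balilla-4x over the 37 tested members, against 1.27 and 1.29 over the tested genes with a count in each library. In Balilla-2x, 20 of the 37 tested members were highest in replicate 3, or 54.1%, against 33.4% of all tested genes. Named members differed in this. WRKY45, WRKY62, WRKY76 and WRKY47 were lowest in replicate 3. By contrast, WRKY28, WRKY71, WRKY70, WRKY24 and WRKY42 were highest in replicate 3 and lowest in replicate 1. In Balilla-4x, 19 of the 37 tested members were highest in replicate 1, or 51.4%, against 38.3% of all tested genes. What set these libraries apart was not tested.

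**Figure D4:**
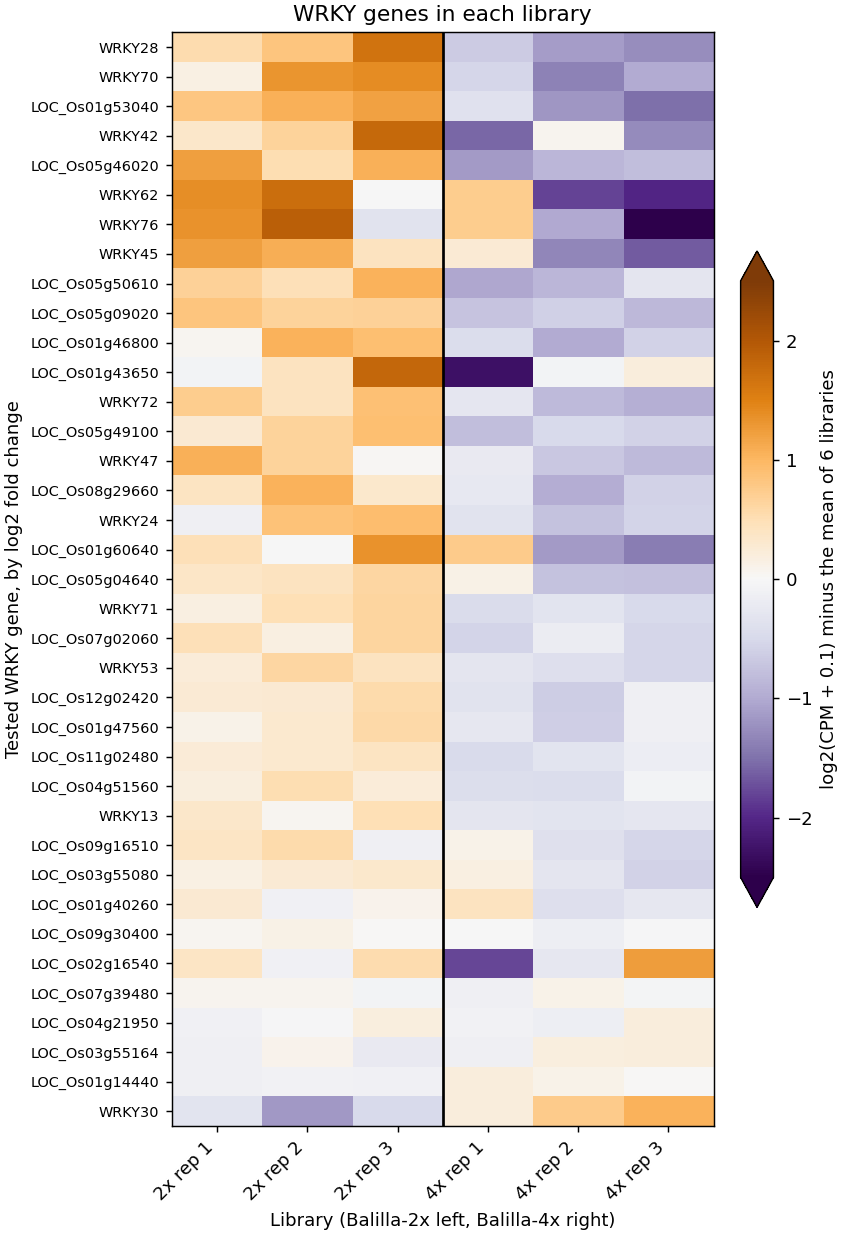
Log2 of CPM plus 0.1 in each library, minus the mean of the 6 libraries, for the 37 tested WRKY genes in order of their log2 fold change, with Balilla-2x on the left and Balilla-4x on the right of the black line. Most rows are above the mean in Balilla-2x and below it in Balilla-4x, WRKY62 and WRKY76 are above it in Balilla-4x replicate 1, and WRKY30 has the opposite pattern.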

How the data were processed

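Leaf RNA of 3 Balilla-2x and 3 Balilla-4x libraries was analysed, grouped by the labels. The authors deposited raw read counts per gene model and FPKM values, per the file headers. The submitters' processing notes name HISAT2 2.1.0 as a tool. How reads were counted, on which build and annotation and with which strand setting is not given in the sources used here, so near-identical or overlapping genes have uncertain values.

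Counts were tested in R 4.3.3 with edgeR 4.0.16, after filterByExpr on the line and TMM scaling, by the two-sided quasi-likelihood test with Benjamini-Hochberg adjustment over 20976 genes (threshold 0.05). The standard error is the log2 fold change divided by the square root of the F statistic. The procedure was tested on simulated data, drawn independently for each gene and library. The simulation held no shift shared by the genes of a library, so it cannot show how such shifts affect the calls. Alternatives were library totals, DESeq2 size factors, DESeq2 1.42.0, other filters, a replicate block, limma 3.58.1 on log2 of FPKM plus 0.1, 1 or 5, and leaving out each library.

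The members and lists were chosen with earlier results of these data known. Values per library are given for the 14 named members and every called one, the rest by range, except for 4 uncalled and 2 untested members given per library after their values had been seen. The names come from the list of members. A RefSeq table (ASM3414082v1) matched 0 of the 46 identifiers and 4 of the 14 names (WRKY24, WRKY62, WRKY71, WRKY76), each on the chromosome its identifier gives. No sequence was used here.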

Additional observations from a re-analysis of the deposited data

How the results depend on the processing

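No member changed direction among the 24 that were called, in any of 16 alternatives. Of their 384 results 350 kept the call and 34 did not, and 15 members kept it throughout. Members called numbered 23 to 25 over scalings, tests, filters and FPKM with a filter (24 as reported), and 17 with limma on log2 of FPKM plus 1 without a filter. At least 2-fold lower members fell from 14 to 7 with FPKM plus 5, where the added value shrinks folds. Leaving out each library in turn left 16 called members (Balilla-4x replicate 2 out) to 29 (Balilla-4x replicate 1 out), 16 to 28 called lower, 0 to 1 called higher, and 3029 to 6600 called genes in all against 5481. Without Balilla-2x replicate 3 and Balilla-4x replicate 3 these were 3269 and 3306 genes.

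The replicate numbers did not pair the libraries (correlations of deviations 0.0019, -0.02 and -0.04), and no library correlated best with its own number in the other line. With the replicate block 26 members were called, and 4617 genes in all. WRKY62, WRKY76 and LOC_Os09g16510 were gained (edgeR adjusted p = 0.0364, 0.024 and 0.0403), and WRKY42 was lost (0.056).

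Sign changes were limited to 4 uncalled members. The log2 fold change of LOC_Os04g21950 was 0.036 with library totals, 0.033 with limma on FPKM plus 1 with or without a filter, 0.034 with FPKM plus 0.1 and 0.030 with FPKM plus 5, and from -0.14 to 0.063 with a library left out. LOC_Os07g39480 was 0.017 with library totals, 0.014 with FPKM plus 1 with or without a filter, 0.015 with FPKM plus 0.1 and 0.013 with FPKM plus 5, and from -0.096 to 0.0017 with a library left out. With a library left out LOC_Os01g40260 ran from -0.44 to 0.031 and LOC_Os02g16540 from -1.19 to 0.39. The cause was not tested. At this depth 3 counts are 0.170 to 0.178 CPM, and the 9 members below the filter had at most 54 counts in a library.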

Other observations

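Of the genes next to the changed WRKY genes 32.2% were called, against 26.1% of all tested genes. Each of the 15 members called at least 2-fold was set beside the 3 tested genes on either side of it, 90 genes that are no members. Of these 61 were not called, 18 (20.0%) were called lower and 11 higher (edgeR, adjusted p under 0.05), against 13.7% and 12.4% of all tested genes. The 90 neighbours had a median log2 fold change of 0.01. At least 2-fold, 1 of the 90 was called lower and 6 higher, against 5.18% and 6.55% of all tested genes. For 9 of the 15 members no neighbour was called at that fold, and how many would lack one by the general rate was not tested. Beside WRKY45, LOC_Os05g25640 was the one neighbour that fell at least 2-fold, with a log2 fold change of -1.90 (SE 0.23, edgeR adjusted p = 0.000832). Beside WRKY70, 4 of 6 neighbours were called lower, with log2 fold changes of -0.44 to -0.51, against -1.98 for WRKY70 itself.

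Neighbours also went the other way. Beside WRKY72, LOC_Os11g29990 was higher in Balilla-4x by 1.88 on the log2 scale (SE 0.33, edgeR adjusted p = 0.00483) and LOC_Os11g29740 by 1.41 (SE 0.42, edgeR adjusted p = 0.0386), where WRKY72 fell. LOC_Os01g46760, the tested gene just before LOC_Os01g46800, was higher by 1.58 (SE 0.23, edgeR adjusted p = 0.00187). Locus numbers give an order and not a distance in bases.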
